A study of Mus musculus with 4 samples.

Results

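The surroundings of Zfp genes were examined in chromatin immunoprecipitation followed by sequencing (ChIP-seq) of the adult mouse hippocampus with an antibody against TIMELESS. A peak was counted when its summit lay in, or within 20 kb of, a protein-coding gene on chromosomes 1 to 19 whose symbol is Zfp followed by digits, and not within 50 kb of an olfactory (Olfr) or vomeronasal (Vmn) receptor gene. Of 112387 autosomal peaks of the 3 TIMELESS libraries, 669 met this rule. They comprised 35 of 6875 peaks in replicate 1, 134 of 23058 in replicate 2 and 500 of 82454 in replicate 3. The single input library, chromatin sequenced without the antibody step, had 5 such peaks among 282.

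All 4 libraries came from hippocampus of adult C57BL/6N mice, and no other genotype, treatment or age is named. The peak caller kept 8425679, 13572739 and 30454118 tags in replicates 1, 2 and 3 and 14669253 in the input, so numbers of peaks cannot be compared between libraries without regard to depth. In the library labelled TIMELESS replicate 3, the command line in the header gives the data the name of an input, and results are therefore given per library. Whether separate animals gave the 3 TIMELESS libraries is not in the labels, and their spread may thus be technical. Peaks were called in each library by itself, without the input as control.

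Zfp is the mouse naming prefix of zinc finger proteins, most of which carry arrays of C2H2 fingers that read DNA sequence. Many also carry a KRAB domain, which recruits the co-repressor TRIM28 and with it the histone mark H3K9me3, often at transposable elements. KRAB zinc finger genes multiplied by tandem duplication and stand in large clusters, while other Zfp genes stand alone and encode conserved regulators of development or of RNA. TIMELESS is known as a component of the replication fork protection complex and as a relative of a fly clock protein.

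The table of genes held 388 Zfp genes on chromosomes 1 to 19. Neighbours at most 250 kb apart were joined, which gave 202 clustered genes in 29 clusters of 3 or more, 46 genes in 23 pairs and 140 isolated genes. Genes of the same family under other names were not counted, so an isolated gene has no other numbered Zfp gene nearby and may still have a relative there. The median length was 15.9 kb for clustered and 21.3 kb for isolated genes, and 21 isolated genes exceeded 100 kb. For 23 genes the whole surroundings lay within 50 kb of a receptor gene, which left them out. The remaining territory was 22.4 Mb, of which 7.81 Mb was around clustered, 2.37 Mb around paired and 12.2 Mb around isolated genes.

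Some Zfp promoters are near copies of each other. RefSeq promoter windows (assembly GRCm38.p6, 250 bases before to 50 after a start) were found for 325 of the 388 genes. The window most like it at another Zfp gene was at least 80% identical by edit distance for 24 of 178 clustered genes, 9 of 35 paired genes and 2 of 112 isolated genes. Of these 35 closest matches, 19 lay in the same cluster or pair and the others elsewhere. The median of this best identity was 53.3% for clustered and 51.3% for isolated genes, so most genes of both kinds had no near copy among these windows. The cluster on chromosome 4 from Zfp992 to Zfp933 had 5 of 9 promoters at 80% or more, of which Zfp979, Zfp982 and Zfp985 had their best match outside the cluster, and also held every input peak near a Zfp gene. Its closest pair inside the cluster, Zfp988 (chr4:147305354-147305653, plus strand) and Zfp534 (chr4:147702582-147702881, minus strand), is shown 5′ to 3′ with the letters that have no equal partner in capitals; 32 edits separate them, which is 89.3% identity.
Zfp988: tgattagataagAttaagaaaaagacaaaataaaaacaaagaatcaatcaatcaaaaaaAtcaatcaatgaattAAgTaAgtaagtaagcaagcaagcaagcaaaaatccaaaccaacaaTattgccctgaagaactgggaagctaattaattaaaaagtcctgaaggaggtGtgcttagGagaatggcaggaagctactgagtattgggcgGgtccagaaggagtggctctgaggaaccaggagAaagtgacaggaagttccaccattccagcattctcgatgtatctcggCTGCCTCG
Zfp534: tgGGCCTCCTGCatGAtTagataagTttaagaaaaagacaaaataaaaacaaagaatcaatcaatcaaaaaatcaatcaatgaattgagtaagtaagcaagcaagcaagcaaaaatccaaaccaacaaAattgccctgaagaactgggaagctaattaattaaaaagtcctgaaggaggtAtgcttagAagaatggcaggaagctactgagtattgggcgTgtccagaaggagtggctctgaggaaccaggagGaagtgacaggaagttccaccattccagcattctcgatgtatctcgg

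No TIMELESS peak of any library overlapped the promoter window of a Zfp gene. The count was 0 of 394 windows in each of the 4 libraries, which allows a share of up to 0.761% in each by counting error. Over all 20084 windows of autosomal coding genes the share was also small, at 0.0299%, 0.0647% and 0.463% for replicates 1, 2 and 3, and the input share was 0.0199%. Summits lay within 3 kb of 0, 8 and 16 Zfp starts in replicates 1, 2 and 3, or 0%, 2.03% and 4.06% of Zfp starts, against 0.772%, 2.11% and 5.23% of all coding starts. Within 5 kb the shares were 0.508%, 5.84% and 8.12% of Zfp starts, against 1.53%, 4.24% and 10.5% of all coding starts. The order in replicate 2 thus depended on the distance. Distances from shared regions were measured only to starts with a promoter window, so Zfp genes without one were not covered. Of the regions shared between libraries, the nearest to such a start lay 3.21 kb downstream of Zfp872, a member of a cluster on chromosome 9. The window of that start (chr9:22187916-22188215, plus strand) is shown because, among these windows, it is the promoter closest to a shared site. Its 17 CG dinucleotides are in capitals.
Zfp872: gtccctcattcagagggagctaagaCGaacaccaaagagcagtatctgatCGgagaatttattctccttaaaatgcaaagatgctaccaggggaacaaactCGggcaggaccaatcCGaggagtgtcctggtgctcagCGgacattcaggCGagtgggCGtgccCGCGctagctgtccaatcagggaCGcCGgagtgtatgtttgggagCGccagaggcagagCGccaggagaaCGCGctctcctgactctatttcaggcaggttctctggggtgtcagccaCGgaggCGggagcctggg
The median Zfp window held 14 CG dinucleotides, as did the median window of all coding genes, with 11 in clustered and 18 in isolated Zfp genes. The canonical E-box CACGTG, the palindrome read by the circadian factors CLOCK and BMAL1, occurred in 6.09% of Zfp windows and in 7.89% of all coding windows.

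Clustered Zfp genes had more TIMELESS peaks per length of sequence than isolated ones in every library. Replicate 1 had 1.92 peaks per Mb around clustered and 1.06 around isolated genes, from 15 and 13 peaks. Replicate 2 had 8.70 and 4.57 per Mb, from 68 and 56 peaks. Replicate 3 had 31.1 and 16.5 per Mb, from 243 and 202 peaks. The ratio was 1.81, 1.90 and 1.88, a mean of 1.86 ± 0.0503 (SD, n = 3 libraries). This SD does not measure how well the ratio is known. The ratio of replicate 1 rests on 15 and 13 peaks, and 80% of its peaks near Zfp genes overlapped a peak of another library. The paired genes had 2.95, 4.22 and 23.2 peaks per Mb, so they stood above the isolated genes in replicates 1 and 3 and below them in replicate 2. The smallest two-sided p of an exact sign-flip permutation test over 3 libraries is 0.25, and that is the p of the clustered against isolated ratio.

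**Figure D1:**
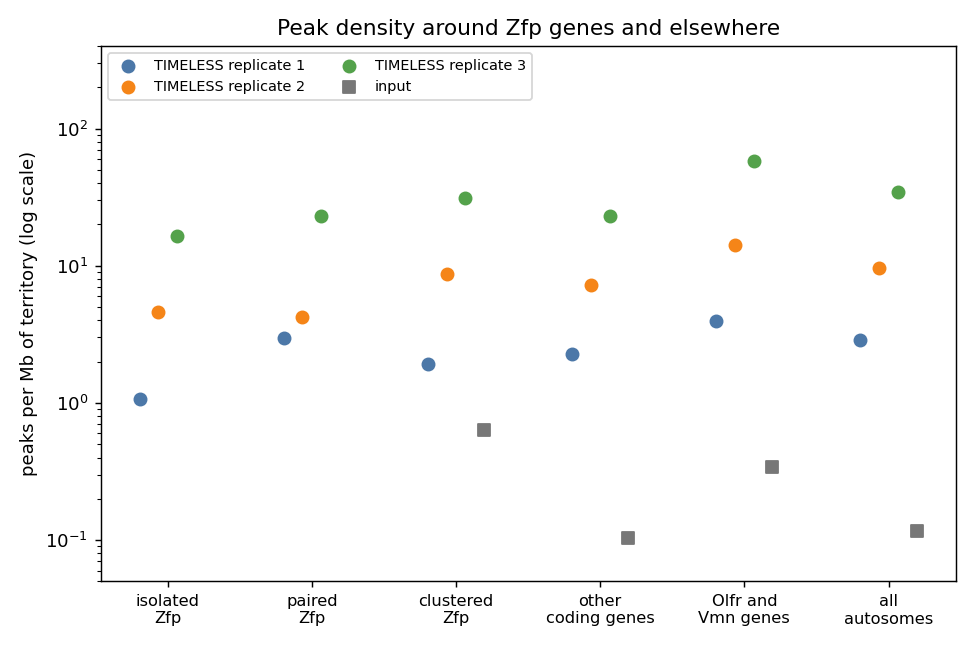
Peaks per Mb (log scale) around isolated, paired and clustered Zfp genes, other coding genes, Olfr and Vmn genes, and over all autosomes; each point is 1 library, squares are the input, and libraries without a peak are not drawn. In each TIMELESS library the clustered point lies above the isolated point, and the input has a point for clustered but for no other kind of Zfp gene.

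The difference depended on the threshold set on the peaks counted. The fold enrichment is the authors' measure of the signal at the summit against the background of the same library. Its median was 4.17, 4.05 and 3.44 around clustered genes in replicates 1, 2 and 3, and 5.24, 4.50 and 3.96 around isolated genes. The median signal at the summit (pileup) did not show this order, at 13, 16 and 25 around clustered and 13, 14.5 and 22.5 around isolated genes. Peaks of at least 5-fold numbered 4, 10 and 24 around clustered genes and 8, 22 and 32 around isolated genes. They made up 26.7%, 14.7% and 9.88% of the clustered and 61.5%, 39.3% and 15.8% of the isolated peaks. At that threshold the densities were 0.512, 1.28 and 3.07 per Mb around clustered genes and 0.653, 1.80 and 2.61 around isolated genes. The direction thus turned in replicates 1 and 2 and held in replicate 3, and the mean ratio fell to 0.890. At −log10 q of at least 5 the ratio was 0.783 in replicate 1, from 2 clustered and 4 isolated peaks. In replicate 2 it stayed above 1, with 2.69 clustered and 2.04 isolated peaks per Mb, from 21 and 25 peaks. In replicate 3 it was 1.57, from 135 peaks of each kind.

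Zfp surroundings as a whole held fewer peaks than those of other coding genes. The 22.4 Mb around Zfp genes had 1.56, 5.97 and 22.3 peaks per Mb in replicates 1, 2 and 3. The 1280 Mb around other coding genes, treated in the same way, had 2.29, 7.24 and 23.1. The ratio was 0.682, 0.825 and 0.964, a mean of 0.824 ± 0.141 (SD, n = 3; exact two-sided sign-flip permutation p = 0.25, the smallest possible). Isolated genes lay below other coding genes in each library, with ratios of 0.464, 0.632 and 0.713 to other coding genes. Clustered genes had ratios of 0.839, 1.20 and 1.34, so they lay below other coding genes in replicate 1 and above them in replicates 2 and 3. Against all autosomal sequence the ratio of Zfp surroundings was 0.545, 0.623 and 0.650.

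Olfr and Vmn genes form the other great tandem arrays of the mouse genome, and their surroundings were denser in peaks than even the clustered Zfp genes. Sequence within 20 kb of them had 3.94, 14.3 and 57.9 peaks per Mb. The clustered Zfp genes reached 0.487, 0.610 and 0.537 of those densities. Coding gene bodies covered 13.9% of the receptor territory, 58.8% of the clustered and 71.8% of the isolated Zfp territory. Outside gene bodies alone, clustered Zfp territory had 1.95 times the density of isolated territory on average, with ratios of 1.84 to 2.13 in the 3 libraries. In replicate 1 this rests on 7 clustered and 4 isolated peaks. The comparison was chosen after the data were seen, and whether gene bodies account for the difference was not tested.

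Around clustered genes, peaks were least dense in the first 5 kb beyond either end in each library. In replicate 3 clustered genes had 28.5 peaks per Mb inside the gene, 23.6 at 0 to 5 kb, 34.5 at 5 to 10 kb and 43.6 at 10 to 20 kb. Isolated genes had 18.2, 9.52, 15.8 and 15.4 in the same order, and other coding genes had 21.3, 20.3, 31.3 and 34.8. Replicate 2 had its lowest clustered density at 0 to 5 kb as well, with 5.55 per Mb, and in replicate 1 no clustered peak of 15 lay there. Isolated genes in replicate 2 had 4.04 peaks per Mb inside, 3.96 at 0 to 5 kb, 2.37 at 5 to 10 kb and 7.51 at 10 to 20 kb, so their lowest density lay at 5 to 10 kb. In replicate 1 the isolated peaks numbered 1 to 6 at each place, too few to order. No test was made of these differences between places.

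**Figure D2:**
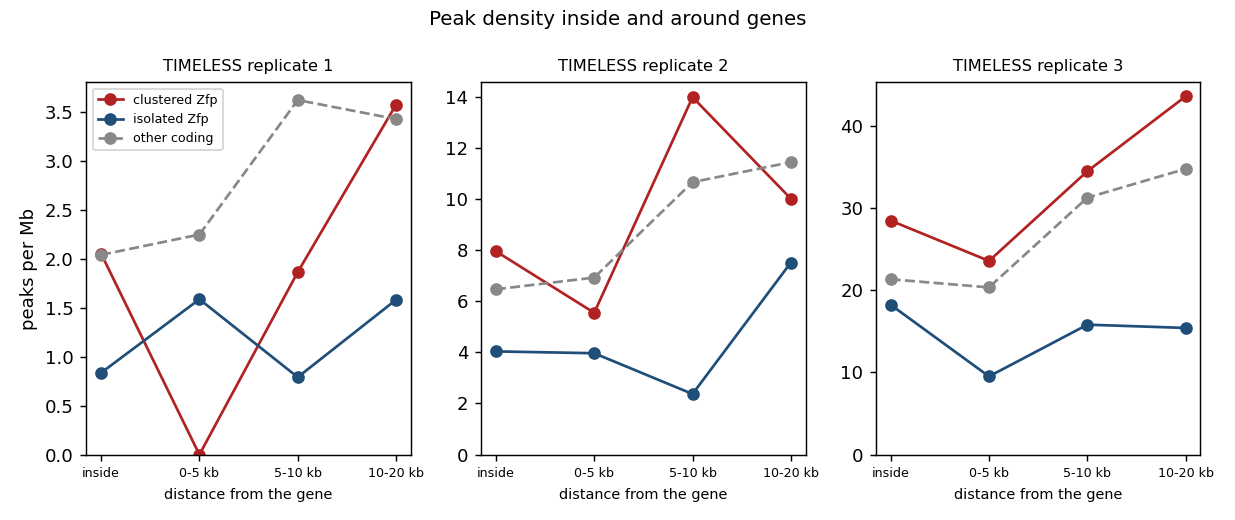
Peaks per Mb (vertical axis, a scale of its own in each panel) inside genes and at 3 distances outside them, for clustered and isolated Zfp genes and other coding genes; each panel is 1 TIMELESS library. In replicate 3 the clustered line runs from 28.5 inside to 43.6 at 10 to 20 kb and stays above the other lines at every distance.

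The density of peaks ranged widely among clusters. Over the 29 clusters the density in replicate 3 ran from 0 to 82.8 peaks per Mb, with a median of 16.2, and 3 clusters had no replicate 3 peak. Over the 131 isolated genes with territory the median was 9.70, and 62 had no replicate 3 peak. The largest cluster, Zfp712 to Zfp273 on chromosome 13 (67038594 to 67827000, mm10), held 23 genes and 2, 5 and 29 peaks in replicates 1, 2 and 3. The cluster of 18 genes from Zfp677 to Zfp946 on chromosome 17 (21383707 to 22456689) held 1, 10 and 42. The cluster of 13 genes from Zfp871 to Zfp414, also on chromosome 17 (32765496 to 33631716), held 1, 3 and 20. These clusters thus had 35.5, 48.3 and 43.5 replicate 3 peaks per Mb, above the 16.5 of isolated genes.

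Other clusters of similar size were nearly empty. The cluster of 15 genes from Zfp84 to Zfp146 on chromosome 7 (29768552 to 30169775), which includes Zfp568, a repressor of a placental Igf2 transcript, held 0, 1 and 1 peaks. The cluster of 12 genes from Zfp180 to Zfp575 on the same chromosome (24081877 to 24587840) held 0, 2 and 3. Chromosome 7 carries 10 of the 29 clusters and 75 of the 202 clustered genes, and its clusters together had 0.836, 4.598 and 10.5 peaks per Mb in replicates 1, 2 and 3. Clusters on the other autosomes had 2.398, 10.5 and 40.2. Isolated genes had 0.861, 4.31 and 2.58 per Mb on chromosome 7, from 1, 5 and 3 peaks, and 1.08, 4.602 and 17.96 elsewhere. This split by chromosome was chosen after the values were seen. On chromosome 7 alone the clustered to isolated ratio was 0.971 in replicate 1, 1.07 in replicate 2 and 4.04 in replicate 3. These ratios rest on 2, 11 and 25 clustered peaks and on 1, 5 and 3 isolated peaks. In replicates 1 and 2 they are too few to tell whether clusters were denser there.

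In replicate 3, 8 of the 10 chromosome 7 clusters and 7 of the 19 others lay below the 16.5 peaks per Mb of isolated genes on all autosomes. Isolated genes on chromosome 7 itself had 2.58 per Mb in that library, below the 10.5 of its clusters together. The cluster of 5 genes from Zfp936 to Zfp819 (43114166 to 43618279) had 0, 5 and 9 peaks and 3 shared regions, all within 20 kb of Zfp936. The cluster of 5 genes from Zfp868 to Zfp866 on chromosome 8 (69610654 to 69774911) had 0, 4 and 7 peaks and 2 shared regions. Across 23 clusters with at least 0.1 Mb of territory and a promoter window, Spearman's rho between the median promoter identity of a cluster and its peaks per Mb was 0.580 in replicate 3 and 0.330 in replicate 2. Between the share of coding gene bodies and replicate 3 peaks per Mb, rho over 23 clusters was -0.408. These clusters share libraries, and neighbouring clusters share chromosomes, so the coefficients are a description.

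**Figure D3:**
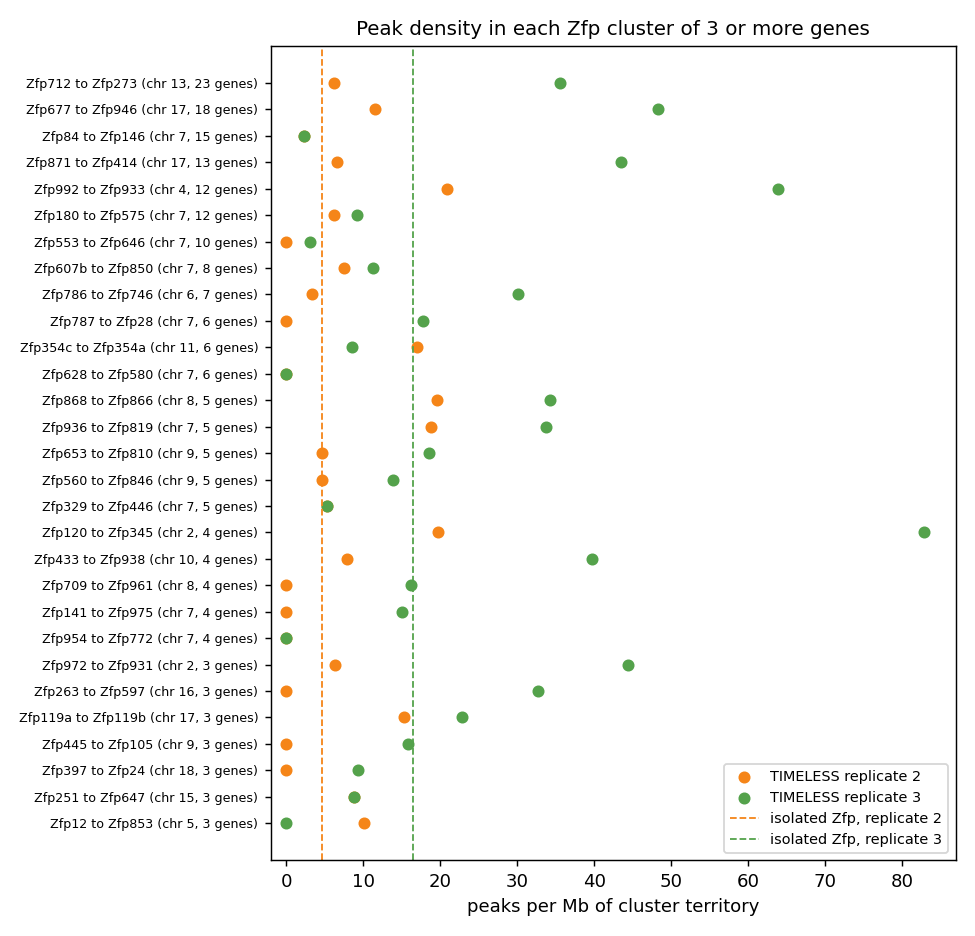
Peaks per Mb of territory in replicates 2 and 3 (points) for each Zfp cluster of 3 or more genes, ordered by number of genes. Dashed lines mark the density around isolated genes on all autosomes. Of the 10 chromosome 7 clusters, 8 lie left of the replicate 3 line, and the highest point is the 82.8 of the cluster from Zfp120 to Zfp345 on chromosome 2.

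The cluster on chromosome 4 from Zfp992 to Zfp933 (146449030 to 147849126) was dense in peaks of both ChIP and input. It held 12 Zfp genes and 4, 18 and 55 peaks in replicates 1, 2 and 3, or 4.65, 20.9 and 64.0 per Mb. These were 11.4%, 13.4% and 11% of all peaks near Zfp genes, in 0.860 Mb of territory. All 5 input peaks near Zfp genes lay in this cluster, which is 5.82 input peaks per Mb, against 0.117 over all autosomes. The input peaks lay in Zfp993, in Zfp978 and 16.0 kb from Zfp534, and their folds ran from 4.12 to 5.96.

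TIMELESS peaks met 3 of these 5 input peaks, or 60.0%, against the 65.6% of all 282 autosomal input peaks met by a TIMELESS peak. Near Zfp534, the merged site (147718429 to 147718829) had TIMELESS folds of 7.44 and 6.11, in replicates 2 and 3, beside 5.54 in the input. In Zfp978, the merged site (147195883 to 147196382) had TIMELESS folds of 5.43 and 3.33, in the same libraries, beside 5.05 in the input. A further site in Zfp978 (147354574 to 147354998) had a fold of 2.55 in replicate 3 and 4.12 in the input. The fold of the input was thus between those of the ChIP libraries, or above them, at 2 of the 3 sites. In replicate 1 no peak near a Zfp gene overlapped an input peak. The share of peaks near Zfp genes over an input peak was 0 of 35 in replicate 1, which allows up to 8.57%, and 1.49% and 0.600% in replicates 2 and 3. Over all autosomal peaks it was 1.79%, 0.62% and 0.183%, and exact 95% binomial intervals of 0.181 to 5.29% and 0.124 to 1.74% around the values of replicates 2 and 3 include the autosomal shares. These intervals and limits cover counting error only.

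A site of all 3 libraries in Zfp993, at 146710526 to 146711345, lay close to an input peak without overlapping it. Its folds were 4.64, 3.88 and 4.17 in replicates 1, 2 and 3, and its summits lay 1.84, 1.90 and 1.92 kb from the summit of the input peak at 146708639 to 146708867. A site of all 3 libraries in Zfp984 (147800841 to 147801816) had folds of 3.14, 3.34 and 2.77. Without this cluster the clustered to isolated ratio was 1.49 to 1.64 in the 3 libraries, and no peak near a Zfp gene lay over an input peak.

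**Figure D4:**
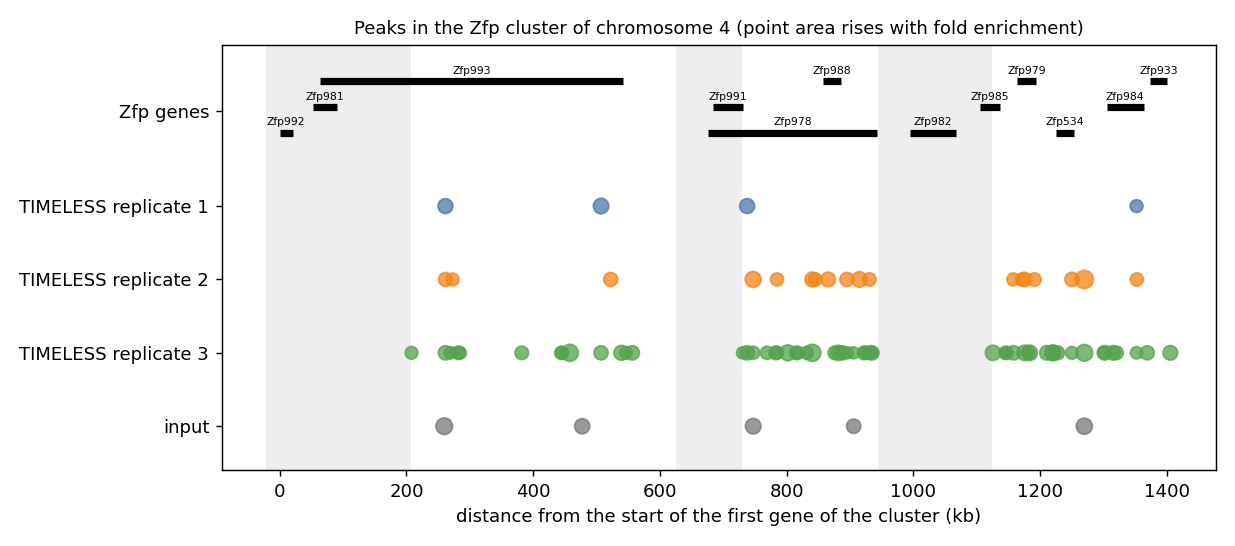
Peaks of each library in the Zfp cluster of chromosome 4 by distance in kb from the start of its first gene, with point area rising with fold enrichment, and Zfp genes as black bars; shaded stretches lie within 50 kb of Olfr or Vmn genes and were left out. The 5 input peaks are spread over the 3 unshaded stretches, and replicate 1 has 4 points where replicate 3 has 55.

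Libraries shared sites near Zfp genes about as often as elsewhere. Of the peaks near Zfp genes, 80%, 42.5% and 11.4% in replicates 1, 2 and 3 overlapped a peak of another TIMELESS library. The exact (Clopper-Pearson) 95% binomial intervals were 63.1 to 91.6%, 34.0 to 51.4% and 8.75 to 14.5%. Over all autosomal peaks the shares were 75.9%, 45.8% and 12.2%, inside each interval. The share was 86.7%, 47.1% and 14.0% around clustered genes and 76.9%, 35.7% and 8.42% around isolated genes, with overlapping intervals in each library.

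Merging overlapping peaks gave 591 regions, of which 3 lay over input peaks and were left out. Of the other 588, 62 were shared by at least 2 libraries, or 10.5%, and 14 held peaks of all 3. Over the autosomes 11.3% of regions were shared and 3.24% held all 3. Most regions, 442, came from replicate 3 by itself, with 77 from replicate 2 and 7 from replicate 1. Replicates 1 and 2 met in 21 regions. Shared regions numbered 34 around clustered genes, or 4.35 per Mb, and 21 around isolated genes, or 1.72 per Mb, beside 3.35 per Mb around other coding genes. Inside a Zfp gene lay 33 of the 62 shared regions and 6 of the 14 of all 3 libraries.

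By gene, 59 of 388 Zfp genes had a shared region in or within 20 kb, or 15.2%, against 17.6% of all 20661 autosomal coding genes. A region of all 3 libraries lay there for 15 genes, or 3.87%, against 6.85%. The median gene length was alike, 17.98 kb for Zfp genes and 17.5 kb for all coding genes. Among genes of 10 to 30 kb the share was 13.5% for Zfp genes and 12.5% for all coding genes. Over genes of any length the share was 16.8% of the 202 clustered and 12.1% of the 140 isolated genes. The exact 95% binomial intervals were 11.9 to 22.7% and 7.24 to 18.7%, and neighbours in a cluster can count the same region. Among isolated genes the long ones had a shared region more often. A shared region was found for 9 of the 21 isolated genes over 100 kb and for 8 of the 119 shorter ones. Long genes have longer surroundings, which raises such shares. Per Mb, replicates 1, 2 and 3 had 1.10, 5.15 and 21.2 peaks around the long genes and 1.03, 4.11 and 12.8 around the shorter ones. A peak of any strength in replicates 1, 2 and 3 was found for 10.3%, 28.9% and 51.0% of Zfp genes, against 13.5%, 31.2% and 49.2% of coding genes. In the input it was 1.03%, against 0.692%. The coding genes included Olfr and Vmn genes, around which the rule removed all summits, so the shares of coding genes are lowered. The same removal left 23 Zfp genes without surroundings. Without the receptor rule, 17.5% of Zfp genes and 19.6% of coding genes had a shared region. How far the rule set the order of the replicate 3 shares was not tested.

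The 14 regions of all 3 libraries had modest folds. Their median was 4.51, 4.11 and 3.22 in replicates 1, 2 and 3, against 5.18, 5.31 and 4.11 over the 3159 such autosomal regions. The highest by its smallest fold lay 8.94 kb from Zfp956, in a cluster on chromosome 6 (47974025 to 47974533). Its folds were 6.55, 7.18 and 6.88, a mean of 6.87 ± 0.315 (SD, n = 3), and 317 regions elsewhere on the autosomes had a larger smallest fold. Next came a region of 1312 bp inside the isolated gene Zfp648 on chromosome 1 (154206971 to 154208282), with folds of 5.27, 5.31 and 4.97. Ranking by the smallest fold favours sites where no library is low, so the closeness of the values at both sites is partly set by the ranking.

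Both genes of a pair on chromosome 7 had a region of all 3 libraries. The region 3.80 kb from Zfp619 (39513590 to 39514220) had folds of 5.33, 5.25 and 4.07. The region 18.6 kb from Zfp939 (39430013 to 39430993) had folds of 5.31, 3.97 and 2.95. In both, replicate 3 was the lowest.

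Among isolated genes, the region 4.35 kb from Zfp386 on chromosome 12 (116042904 to 116043557) had folds of 3.55, 5.73 and 4.40. Zfp827, whose human counterpart recruits a chromatin remodelling complex to telomeres, held a region on chromosome 8 (79035254 to 79035666) with folds of 5.24, 6.16 and 3.44. A further region in Zfp827 (79109813 to 79110863) reached a fold of 6.50 in replicate 2 and 12.7 in replicate 3 with no peak in replicate 1, and the replicate 3 value was the highest fold of any peak near a Zfp gene. Zfp423, a regulator of cerebellar development and fat cell commitment, had a region 11.1 kb outside the gene on chromosome 8 (87650478 to 87650906), with folds of 4.37, 3.42 and 3.44. Zfp438 on chromosome 18 held one (5233969 to 5234446) with 4.34, 4.07 and 2.71.

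Among clustered genes, Zfp81 on chromosome 17 held a region (33339940 to 33340477) with folds of 4.17, 4.04 and 3.01. The region 13.1 kb from Zfp119b on chromosome 17 (55924889 to 55925308) had 5.09, 4.36 and 2.87. The regions near Zfp995 on chromosome 17 and Zfp781 on chromosome 10, the last of the 14, had smallest folds of 2.51 and 2.47, both in replicate 3. In 10 of the 14 regions replicate 3 had the lowest fold. Replicate 3 was also the deepest library, and the effect of depth on folds was not tested.

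**Figure D5:**
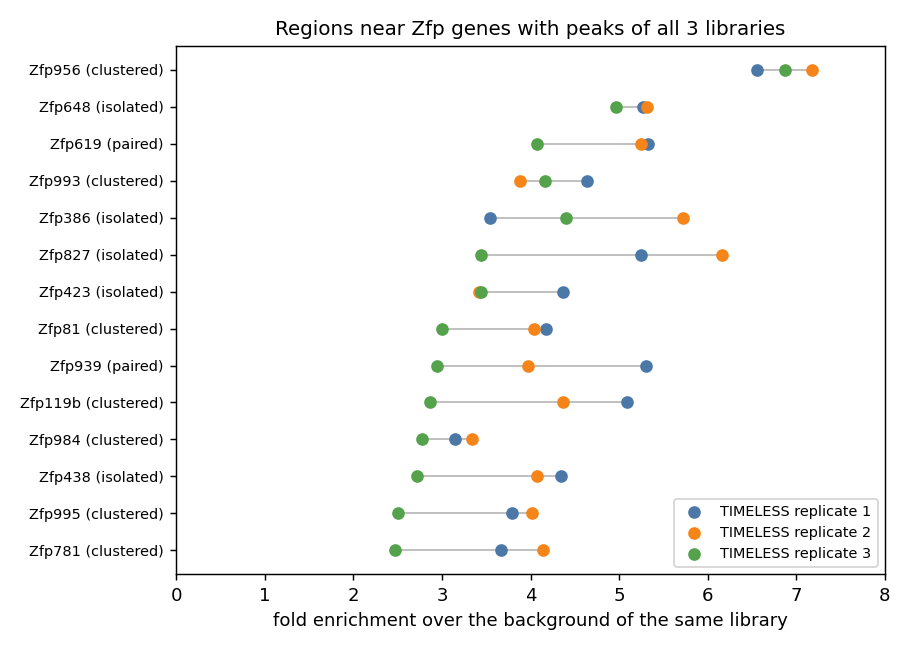
Fold enrichment over the background of the same library (horizontal axis) in replicates 1, 2 and 3 (points) for the 14 regions near Zfp genes that hold peaks of all 3 libraries, named by the nearest Zfp gene, with a grey line from the lowest to the highest. Zfp956 is at the top with folds of 6.55 to 7.18, and replicate 3 is the leftmost point in most rows.

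Some distant sites had exactly the same values. In replicate 1 the regions near Zfp956 on chromosome 6, Zfp503 on chromosome 14, Zfp612 on chromosome 8 and Zfp236 on chromosome 18 each had a pileup of 14 and a fold of 6.55. Zfp956 and Zfp612 also shared the fold of 7.18 in replicate 2, and Zfp956 and Zfp503 that of 6.88 in replicate 3. A background common to distant sites thus entered these folds. These genes other than Zfp956 were named after their values were seen.

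Few Zfp genes had more than 1 shared region. Zfp978 had 4, from 1, 8 and 21 peaks in replicates 1, 2 and 3 over a gene of 267.1 kb. Zfp804b, the longest Zfp gene with 575.3 kb on chromosome 5, had 3 shared regions from 0, 6 and 35 peaks. Zfp936 had 3 from 0, 5 and 7 peaks, Zfp993 had 2 from 2, 3 and 13 peaks, and Zfp979 had 2 from 0, 4 and 8 peaks. Zfp827, Zfp957, Zfp119b and Zfp866 also had 2, so genes as short as the 13.6 kb of Zfp866 are among them. Of the 59 genes with a shared region, 50 had 1.

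Known genes were picked by hand, too few of each role to set against the 17.6% of coding genes with a shared region, and their values are given singly. Zfp57, which keeps methylation at imprinted regions, Zfp809, which silences murine retroviruses, and Zfp568 had no peak in any library. Zfp932, a repressor of endogenous retroviruses, had 1, 0 and 3 peaks and a shared region 15.4 kb outside the gene, with folds of 4.81 and 2.87 in replicates 1 and 3. Zfp42, known as Rex1 and a marker of pluripotency, had 0, 0 and 2 peaks, and the pluripotency factor gene Zfp281 had 0, 0 and 1.

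Several of the longest Zfp genes are linked to the nervous system. Zfp804a, whose human counterpart is associated with schizophrenia, spans 209.8 kb on chromosome 2 and had 1, 1 and 10 peaks in replicates 1, 2 and 3. Its shared region (82204800 to 82205159) reached a fold of 3.98 in replicate 1 and 3.54 in replicate 2, with no peak in replicate 3. Zfp536, a regulator of neuronal differentiation spanning 456.0 kb on chromosome 7, had 1, 3 and 1 peaks and a shared region (37347850 to 37348188) with folds of 5.13 and 4.78 in replicates 2 and 3. Zfp704, of 183.1 kb, had 0, 2 and 9 peaks and no shared region.

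Some long Zfp genes had few peaks. Among isolated genes, 85.7% of those over 100 kb and 42.9% of the others had a replicate 3 peak in or within 20 kb. The longer surroundings of long genes were not allowed for in these shares. Zfp423, of 300.2 kb, had 1, 2 and 1 peaks, and 1 of these lay inside the gene. Zfp462, of 139.1 kb, whose human counterpart is mutated in a developmental disorder, had 0, 0 and 1. Zfp609, of 136.0 kb, a regulator of cortical neuron migration, had none in any library. The shorter genes Zfp335, needed for neurogenesis, and Zfp189, studied in stress resilience of the mouse cortex, had none, and Zfp365 had 0, 0 and 2.

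Some Zfp genes encode RNA-binding proteins. Zfp36, which encodes the mRNA decay factor tristetraprolin, and its relative Zfp36l1 had none in any library, and Zfp36l2 had 0, 1 and 1 at different sites. Zfp106, which encodes another RNA-binding protein, had 0, 1 and 0. Zfp207, a spindle assembly factor, had none, and no shared region lay near any of these genes.

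The limit of 20 kb cut through a continuous range of distances. The summits just inside it were 19.9 kb from Zfp277, 19.8 kb from Zfp438 and 19.7 kb from Zfp787, with folds of 4.10, 4.65 and 3.07. Just outside were summits 20.02 kb from Zfp970, with a fold of 5.23, and 20.06 and 20.08 kb from Zfp957, with folds of 5.31 and 5.76.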

How the data were processed

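ChIP-seq peak lists of 3 TIMELESS libraries and 1 input library were used. MACS 2.1.2 called the peaks of each library separately, without a control and at a q value of 0.05, per the file headers. Bowtie2 2.4, SAMtools 1.14, deepTools 2.0, MACS2 2.1.1 and the build mm10 are named in the submitters' processing notes. Aligner settings, such as the treatment of reads that map to several places, are not given in the sources used here. The deposited pileup is the signal at the summit, not scaled for depth. The deposited fold sets that pileup against the background of the same library, within 10000 bp or common to distant sites. It is not the plain ratio of pileup to background, and how depth enters it was not tested. The deposited p and q values are −log10 values. These are the authors' values and were used to describe and filter peaks.

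Gene positions came from a RefSeq table of GRCm38.p6, the build of the files, without exons, so exonic and intronic sites were not told apart. Territory was the union of genes and 20 kb on both sides, less 50 kb around 2043 Olfr and Vmn genes. Other coding genes were treated alike, less the Zfp territory. Peaks overlapping by at least 1 bp were merged into regions. Regions over input peaks were left out of shared counts, and each library's highest peak gave its fold in a region. Chromosome spans ran from the first to the last peak of any library. Genes and clusters were named by a rule: regions of all 3 libraries by smallest fold, sites over input peaks, the largest clusters and those with most shared regions, genes with most shared regions, and known genes. Zfp120, Zfp781, Zfp866, Zfp872, Zfp957, Zfp982, Zfp985, Zfp988 and Zfp995 were named after their values were seen. Members and lists were chosen with earlier results of these data known. Ratios were tested by exact sign-flip permutation over libraries (Python 3.11.15, scipy 1.17.1), and the functions were tested on simulated data. Alternatives were thresholds, windows, cluster gaps, overlaps, symbols, the receptor rule and leaving out libraries. Peaks within 20 kb of Zfp genes that the receptor rule removed numbered 9, 38 and 120 in the 3 TIMELESS libraries, with 3 input peaks.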

Additional observations from a re-analysis of the deposited data

Results flagged for a closer look

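Zfp genes on chromosome X lay outside the rule. Within 20 kb of the 9 of them, in 0.572 Mb, replicates 1, 2 and 3 had 1, 2 and 9 peaks and the input had 0. These peaks were flagged because they lie above the input in data that no comparison used. TIMELESS peaks outnumbered input peaks over the autosomes as well, with 6875, 23058 and 82454 against 282, so the excess is not particular to these genes.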

How the results depend on the processing

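Values are means over libraries; ratios are log2. Without 1 library each, the peaks near Zfp genes numbered 84.5 to 317 (223 with all) and genes with a shared region 24 to 40 (59 with all), with 24 when replicate 2 or 3 was absent. At −log10 q of at least 5 there were 119.7 peaks, a share of 1.58% over input peaks (0.698% in the main setting) and 22 genes with a shared region (5.67%, against 9.49% of coding genes; 15.2% and 17.6% in the main setting). At fold of at least 5 these values were 37.7 peaks, 2.50% and 12 genes (3.09%, against 6.38%). With 50 kb in place of 20 kb there were 361.7 peaks and 111 genes (28.6%, against 29.3%). The clustered to isolated ratio, 0.90, reversed to -0.20 at fold of at least 5, and ranged from 0.23 to 1.17 under the other 13 alternatives that kept all libraries; the cause was not tested. The ratio to other coding genes stayed below 0 under all 12 alternatives, from -0.71 to -0.16, but in replicate 3 it was 0.04 without the receptor rule and 0.06 outside gene bodies. Of the 12 named regions of all 3 libraries, 2 kept all 3 peaks at −log10 q of at least 5 and 1 at fold of at least 5. Comparisons by chromosome, by gene body, by length of isolated genes, without the chromosome 4 cluster and with pairs as clusters were chosen after seeing the data. No paired analysis was possible because the input is a single library. Replicate 1 limits every statement on few peaks, with 35 in all.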
